A study of Mus musculus with 6 samples.

Results

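The acyl-CoA dehydrogenase family was described across livers of Balb/c and Balb/cBy mice by 10 genes: Acads, Acadm, Acadl, Acadvl, Acadsb, Acad8, Acad9, Acad10, Ivd and Gcdh. They are 10 of 22180 genes tested. A gene was taken from the probe set whose only gene symbol in the platform annotation was that gene, and each member was read by 1 such probe set. Each array held liver RNA of male mice, 3 arrays per substrain, labelled as biological replicates. All mice were 20 weeks old and kept singly. From an age of 8 weeks, and for 12 weeks, they had eaten food in which fat supplied 58% of the energy, so the diet was shared by both groups and its own effect is not measured. Balb/c and Balb/cBy are inbred substrains separated by breeding. Balb/cBy is known to carry a deletion at the 3′ end of Acads, but the labels give neither the Acads genotype of these mice nor their supplier. Other differences between the substrains cannot be told apart from the Acads allele.

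Acyl-CoA dehydrogenases are flavin enzymes, most of them in the mitochondrial matrix, that remove hydrogen from the acyl chain of a coenzyme A ester and pass the electrons to the electron transfer flavoprotein. The straight-chain members open each round of fatty acid beta-oxidation and divide the work by chain length: Acadvl for very long, Acadl for long, Acadm for medium and Acads for short chains. Other members act in amino acid breakdown: Ivd on the isovaleryl group from leucine, Acadsb on short branched chains from isoleucine, Acad8 on the isobutyryl group from valine, and Gcdh on the glutaryl group from lysine and tryptophan. Liver is a main site of these pathways, which feed ketone body and energy production when fat is plentiful.

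Promoter sequence of 9 of the 10 members was found in the RefSeq table of build GRCm38.p6, while Acad9 had no entry. The windows cover the 250 bases before the start site, 5′ to 3′ on the gene's strand. Acads is shown because the results turn on it, and Acadm and Acadvl because they were the members holding AGGTCA, the core site read by PPAR-alpha and related nuclear receptors. Capitals mark that core site or the GC box GGGCGG, on either strand, so that they also appear as TGACCT or CCGCCC.
Acads, chr5:115119347-115119596, minus strand: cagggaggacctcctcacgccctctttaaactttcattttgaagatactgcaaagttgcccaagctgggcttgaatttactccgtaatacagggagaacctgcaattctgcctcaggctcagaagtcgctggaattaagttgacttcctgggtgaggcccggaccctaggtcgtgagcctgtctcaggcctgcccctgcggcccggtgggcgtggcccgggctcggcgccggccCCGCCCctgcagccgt
Acadm, chr3:153944644-153944893, minus strand: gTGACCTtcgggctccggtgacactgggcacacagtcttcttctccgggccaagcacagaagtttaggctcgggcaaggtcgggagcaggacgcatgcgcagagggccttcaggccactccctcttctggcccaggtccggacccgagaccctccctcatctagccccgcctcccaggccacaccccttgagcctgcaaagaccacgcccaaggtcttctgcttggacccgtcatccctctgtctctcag
Acadvl, chr11:70015429-70015678, minus strand: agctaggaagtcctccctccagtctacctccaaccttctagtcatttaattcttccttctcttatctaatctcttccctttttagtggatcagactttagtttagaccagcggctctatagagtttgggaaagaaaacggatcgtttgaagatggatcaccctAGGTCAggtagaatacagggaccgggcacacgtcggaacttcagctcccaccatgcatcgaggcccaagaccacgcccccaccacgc

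The Acads window held 1 GC box, starting 16 bases before the start site. The core site began 249 bases before the start of Acadm and 87 before that of Acadvl. A core site was present in 2 of the 9 member windows and in 14% of all 32851 promoter windows of the table. A GC box was present in 5 of the 9 and in 32.7% of all, and CCAAT in 3 of the 9 (Acad8, Ivd and Gcdh) and in 33.8% of all. The paired element AGGTCANAGGTCA, TATAAA and TGACGTCA were in 0 of the 9, and in 0.0335%, 12.4% and 1.55% of all windows. These matches describe letters of the reference and are not measured binding. The known Acads deletion lies outside the window.

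Acads stood apart between the substrains, with lower values in all 3 Balb/cBy arrays than in any Balb/c array. The log2 values were 11.53, 11.46 and 11.28 in Balb/c replicates 1 to 3, and 10.60, 10.79 and 10.93 in Balb/cBy replicates 1 to 3. The groups did not overlap, and the gap between the lowest Balb/c and the highest Balb/cBy array was wider than the distance between neighbouring arrays within either group. The log2 difference, Balb/cBy minus Balb/c, was -0.65 (SE 0.12, 95% interval -0.92 to -0.38), which is a Balb/cBy level of 0.636 of the Balb/c level (interval 0.527 to 0.768). Over all genes, 28 had a more negative difference than Acads, and by unadjusted p (0.000515) it ranked 24 of 22180. With limma and Benjamini-Hochberg adjustment over all genes it did not pass (adjusted p = 0.476). The two-sided exact permutation test gave 0.1, the smallest p that 3 arrays against 3 can give. Of all genes, 0% passed an adjusted p of 0.05, 3.76% had an unadjusted p under 0.05 (1.16% on the lower side), and 3.51% were lower in Balb/cBy without overlap. Where the probes of the Acads set lie relative to the deletion is not given in the sources used here, so the value does not check the genotype.

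**Figure D1:**
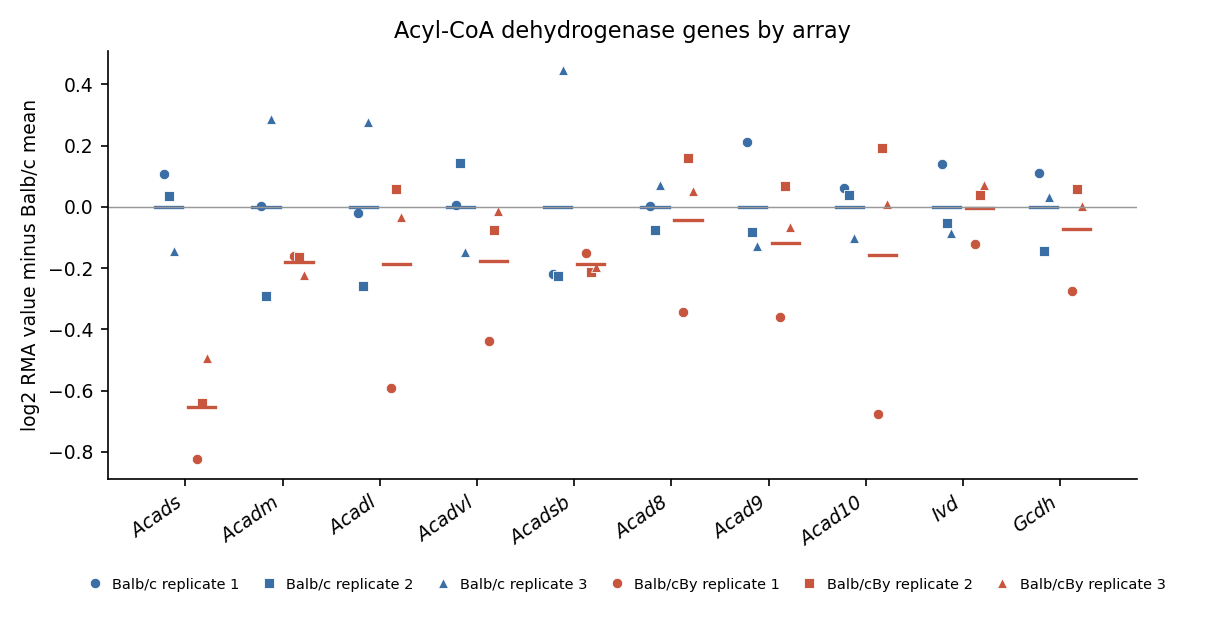
Values of the 10 genes in each array (vertical axis, log2 RMA value minus the gene's Balb/c mean) for Balb/c (blue) and Balb/cBy (red), with a marker shape per replicate number and a line at each group mean. The 3 Balb/cBy arrays of Acads lie below all Balb/c arrays, while the groups of the other 9 genes overlap, and Balb/cBy replicate 1 is the lowest array for 8 of the 10.

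Acads remained lower when any array was left out. The difference lay between -0.73, when Balb/cBy replicate 3 was dropped, and -0.57, when Balb/cBy replicate 1 was. Among the other settings it lay between -0.71, after a repeated quantile normalization, and -0.61, with array weights. Its adjusted p ranged from 0.159 to 0.9999 over the 15 alternatives, and in none of them did Acads pass.

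The straight-chain partners of Acads had differences of about the same small size, and their groups overlapped. Acadm, the medium-chain dehydrogenase, stood at 11.96, 11.67 and 12.24 in Balb/c replicates 1 to 3 and at 11.80, 11.79 and 11.73 in Balb/cBy replicates 1 to 3. The Balb/cBy arrays lay close together and inside the wide range of Balb/c, with an SD of 0.035 against 0.29. The log2 difference of Acadm was -0.18 (95% interval -0.51 to 0.15), which became -0.04 when Balb/c replicate 3 was left out, or -0.33 when replicate 2 of Balb/c was.

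Acadl, the long-chain dehydrogenase, stood at 10.86, 10.62 and 11.15 in Balb/c and at 10.29, 10.94 and 10.85 in Balb/cBy, in the order of the replicate numbers. Balb/cBy replicate 1 was the lowest array, and the other two Balb/cBy arrays lay within the Balb/c range. The log2 difference was -0.19 (interval -0.64 to 0.26), and without Balb/cBy replicate 1 it was 0.01. Acadvl, the very long-chain dehydrogenase of the inner membrane, stood at 10.65, 10.79 and 10.50 in Balb/c and at 10.21, 10.57 and 10.64 in Balb/cBy. Here too replicate 1 of Balb/cBy was lowest and the others lay within the Balb/c range. The log2 difference was -0.18 (interval -0.49 to 0.14), and without Balb/cBy replicate 1 it was -0.04. None of these 3 genes passed in limma, with an adjusted p of 0.999 each.

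The dehydrogenases of branched-chain and lysine breakdown did not pass either, and all of them overlapped between the groups. Acadsb stood at 9.89, 9.88 and 10.55 in Balb/c replicates 1 to 3 and at 9.96, 9.89 and 9.91 in Balb/cBy. A high Balb/c replicate 3 set its mean apart, since the other 5 arrays lay between 9.88 and 9.96. The log2 difference was -0.19 (95% interval -0.59 to 0.22), and without Balb/c replicate 3 it was 0.04. Ivd, the isovaleryl-CoA dehydrogenase, stood at 10.62, 10.43 and 10.40 in Balb/c and at 10.36, 10.52 and 10.55 in Balb/cBy. Its group means were nearly equal, with a log2 difference of -0.0047 (interval -0.24 to 0.24), or a Balb/cBy level between 0.844 and 1.18 of the Balb/c level. The sign of Ivd turned when replicate 1 was left out of Balb/c (0.06) or of Balb/cBy (0.05), and with arrays recentred on their median (0.01).

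Acad8, the isobutyryl-CoA dehydrogenase, stood at 9.89, 9.81 and 9.96 in Balb/c and at 9.55, 10.05 and 9.94 in Balb/cBy. The Balb/cBy arrays held both the lowest and the highest value. The log2 difference was -0.04 (interval -0.36 to 0.27), and it was 0.11 without Balb/cBy replicate 1 and 0.03 with array weights. Gcdh, the glutaryl-CoA dehydrogenase, stood at 12.01, 11.75 and 11.93 in Balb/c and at 11.62, 11.96 and 11.90 in Balb/cBy. All but replicate 1 of Balb/cBy lay within the Balb/c range. The log2 difference was -0.07 (interval -0.35 to 0.21), and without Balb/cBy replicate 1 it was 0.03.

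Acad9 is known mainly as an assembly factor of respiratory complex I, and Acad10 is a less studied member with a kinase-like part beside its dehydrogenase part. Acad9 stood at 9.31, 9.01 and 8.97 in Balb/c and at 8.74, 9.17 and 9.03 in Balb/cBy, a log2 difference of -0.12 (interval -0.45 to 0.21). Acad10 stood at 9.54, 9.51 and 9.37 in Balb/c and at 8.80, 9.67 and 9.48 in Balb/cBy, a log2 difference of -0.16 (interval -0.63 to 0.31). Both had their lowest value in Balb/cBy replicate 1, and for Acad10 the SD was 0.46 in Balb/cBy against 0.090 in Balb/c. Without that array the differences were 0.0012 for Acad9 and 0.10 for Acad10.

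As a family, all 10 genes had a lower mean in Balb/cBy, with a median log2 difference of -0.17 and a range from -0.65 to -0.0047, where 50.9% of all genes were lower and the median of all was -0.0028. For 1 of the 10, Acads, the groups did not overlap, against 7.83% of all genes in either direction. Acads was also the 1 member with an unadjusted p under 0.05, while 0 passed after adjustment. The count of 10 rested on Balb/cBy replicate 1. Without that array 4 members were lower (Acads, Acadm, Acadvl and Acadsb) and the median was 0.01, with 53.3% of all genes lower. Without any other array the count was 9 or 10. The median was -0.05 without Balb/c replicate 3.

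**Figure D2:**
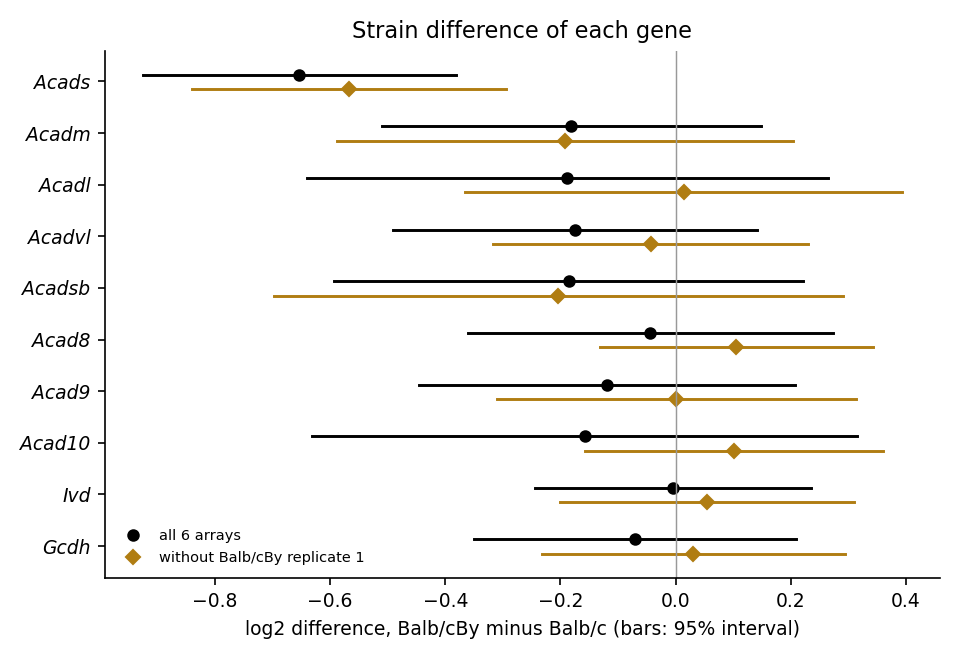
Log2 difference of each gene, Balb/cBy minus Balb/c (horizontal axis), from limma with its 95% interval, with all 6 arrays (black circles) and without Balb/cBy replicate 1 (ochre diamonds). The Acads interval lies below 0 in both fits, and the intervals of the other 9 genes include 0 in both.

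The arrays of a group differed from each other along the family. In Balb/cBy replicate 1, 8 of 10 members lay below their group mean, by 0.52 on the log2 scale for Acad10, 0.40 for Acadl, 0.30 for Acad8, 0.26 for Acadvl, 0.24 for Acad9, 0.20 for Gcdh, 0.17 for Acads and 0.12 for Ivd. Acadm and Acadsb were the exceptions, at 0.02 and 0.03 above it. In Balb/c, replicate 3 was the highest array for Acadm, Acadl, Acadsb and Acad8, and the lowest for Acads, Acadvl, Acad9, Acad10 and Ivd. The mean of the 8 hepatocyte markers was 12.71 in Balb/cBy replicate 1 and 12.84 to 12.98 in the other arrays. Among these markers, Pck1 stood at 12.24 in that array and at 12.68 to 13.16 in the others. Alb stood at 14.16 in that array and at 14.17 to 14.22 in the others. Not all of the 8 markers were lowest there. Tat stood at 12.97 in that array and at 12.87 to 13.62 in the others, and Ass1 at 7.98 and at 7.80 to 8.33. The 13 mitochondrial reference genes included Cs, Vdac1, Tomm20 and Tfam. Their mean was 10.06 in Balb/cBy replicate 1, 9.985 in Balb/c replicate 2 and 10.23 to 10.32 in the others. The part of either set of genes in the values of the family was not tested. In whole tissue, fewer cells of a type and less RNA per cell cannot be told apart.

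Across the 6 arrays, 38 of the 45 pairs of members had a Pearson correlation above 0, with a median of 0.55, from -0.46 for Acadsb with Ivd to 0.91 for Acadl with Acad8. Acads had r from 0.16, with Acadsb, to 0.72, with Acadvl. The points of each pair share their arrays and their normalization, and these values describe 6 points only.

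Set against each other member within the same array, Acads was lower in Balb/cBy by 0.47 to 0.65 on the log2 scale. The widest gap was to Ivd, and the narrowest was to Acadl. For Acadvl, Acad8, Acad9, Acad10, Ivd and Gcdh, 6 of the 9 comparisons, the groups did not overlap, and the exact permutation p was 0.1 for each, the smallest that the design allows. For Acadm, Acadl and Acadsb the groups overlapped, since Balb/c replicate 3 lay at -0.43, -0.42 and -0.59 relative to its group mean. Their exact permutation p was 0.2, 0.2 and 0.3. All 9 comparisons reuse the same Acads values and are not separate evidence of its difference.

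**Figure D3:**
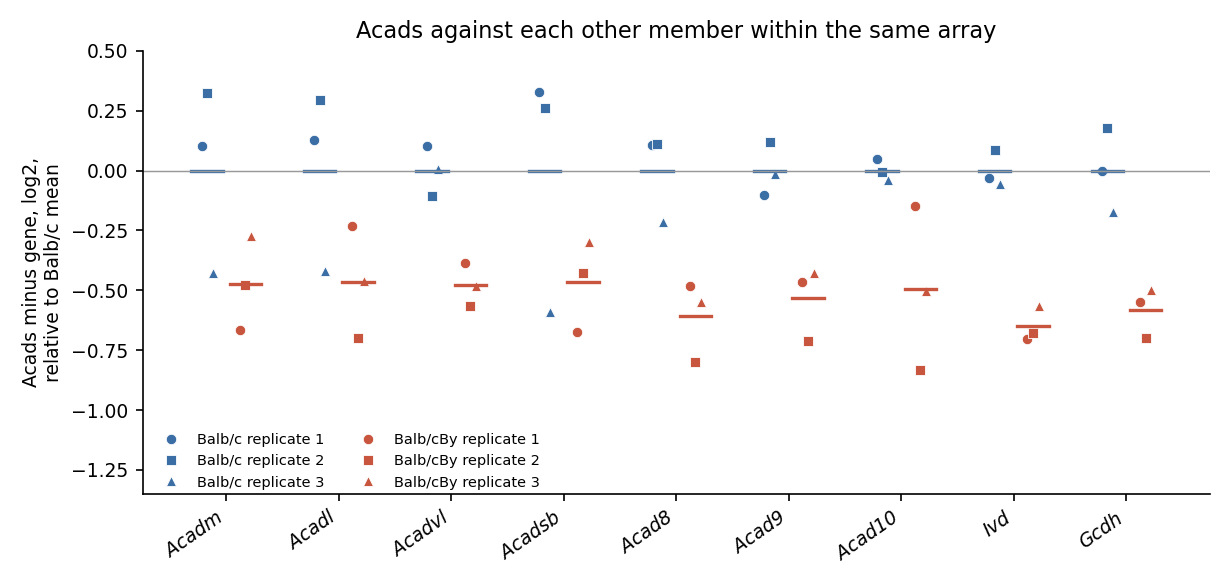
Acads minus each other member within an array (vertical axis, log2, relative to the Balb/c mean of that difference), with a marker per array and a line at each group mean. The Balb/cBy means lie between -0.65 and -0.47, and Balb/c replicate 3 reaches into the Balb/cBy range for Acadm, Acadl and Acadsb.

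Genes that work beside the family were read from 10 lists, in which no gene passed the adjusted threshold. Later steps of mitochondrial beta-oxidation were lower for 9 of 10 genes, with a median log2 difference of -0.06, where 50.9% of all genes were lower. Hsd17b10, a dehydrogenase of short branched chains, was the exception. It stood at 10.76, 10.59 and 10.71 in Balb/c and at 10.83, 10.97 and 10.88 in Balb/cBy. The log2 difference was 0.21 (interval -0.01 to 0.42), and the groups did not overlap, as for 7.83% of all genes. Hadh, which acts on short-chain hydroxyacyl groups in the same round of oxidation as Acads, differed by -0.14 (interval -0.35 to 0.07). Without Balb/cBy replicate 1, 4 of the 10 genes were lower and the median was 0.03. The count was 6 when either replicate 1 or replicate 3 of Balb/c was left out.

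Among branched-chain amino acid steps, 14 of 17 genes were lower, with a median of -0.12, where 50.9% of all genes were lower. The count lay between 11 and 14 when an array was left out, and the median was -0.03 without Balb/cBy replicate 1. Hibch, a hydrolase of a later step than Acad8 in valine breakdown, stood at 8.74, 8.65 and 9.30 in Balb/c and at 8.41, 8.41 and 8.57 in Balb/cBy. Its groups did not overlap, as for 7.83% of all genes, and its log2 difference was -0.43 (interval -0.82 to -0.04, adjusted p = 0.999 in limma). It was the 1 gene of the list with an unadjusted p under 0.05 (0.0335), where 3.76% of all genes had one.

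Electron acceptors and flavin supply had no common direction, with 3 of 8 genes lower and a median of 0.01. Etfa, the alpha subunit of the electron transfer flavoprotein, differed by -0.24 (interval -0.61 to 0.13), and Etfbkmt, which methylates its beta subunit, by 0.27 (interval -0.16 to 0.70). Its beta subunit Etfb differed by -0.01 (interval -0.26 to 0.23) and the dehydrogenase Etfdh, which passes the electrons on to ubiquinone, by 0.01 (interval -0.21 to 0.24). Fatty acid activation and entry had 4 of 10 genes lower, with a median of 0.01. The carnitine carrier Slc25a20 differed by -0.22 (interval -0.58 to 0.13), and Acsm1, a medium-chain acyl-CoA synthetase, by 0.08 (interval -0.15 to 0.32). Short-chain acyl-CoA handling had 5 of 10 lower and a median of 0.0043. Nudt7, a peroxisomal coenzyme A hydrolase, had the smallest p of that list, with a log2 difference of 0.55 (interval -0.08 to 1.19), and the glycine acyltransferase Glyat differed by -0.18 (interval -0.62 to 0.27).

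Lysine and tryptophan steps beside Gcdh had 3 of 11 genes lower and a median of 0.06. Acmsd, a decarboxylase of the kynurenine pathway, stood at 8.37, 8.09 and 8.51 in Balb/c and at 9.14, 8.42 and 9.05 in Balb/cBy. Balb/cBy replicate 2 lay within the Balb/c range, and the log2 difference was 0.54 (interval 0.09 to 0.998, adjusted p = 0.999 in limma). The median of this list was -0.02, with 8 genes lower, without Balb/c replicate 2. Complex I assembly partners of Acad9 had 1 of 5 genes lower, with Tmem186 at 0.10 and Ecsit at 0.09. Other dehydrogenase-like genes had 3 of 4 lower, namely Acad11, Acad12 and Acox2, with differences from -0.08 to -0.04, while the peroxisomal oxidase Acox3 was at 0.13. For 9 of the 10 lists the sign of the median depended on which array was left out, the branched-chain list being the exception.

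Of the regulators of the family, 6 of 11 were lower, with a median of -0.0012. Ppara, the fatty acid receptor known to raise transcription of Acadm, Acadl and Acadvl, stood at 10.43, 10.45 and 10.81 in Balb/c and at 9.74, 10.27 and 10.54 in Balb/cBy. The groups overlapped through Balb/cBy replicate 3, and the log2 difference was -0.38 (interval -0.84 to 0.09). The coactivator Ppargc1b differed by -0.28 (interval -0.72 to 0.15). Of the 13 mitochondrial reference genes 7 were lower, with a median of -0.01. Tfam, the packaging and transcription factor of mitochondrial DNA, stood at 8.34, 8.37 and 8.47 in Balb/c and at 7.91, 8.07 and 8.17 in Balb/cBy. Its groups did not overlap (log2 difference -0.34, interval -0.58 to -0.11, adjusted p = 0.999 in limma). Tfam was the 1 reference gene of 13 without overlap, and 7.83% of all genes did not overlap. Tomm20, an import receptor of the outer membrane, differed by 0.34 (interval 0.01 to 0.66) with overlapping groups.

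**Figure D4:**
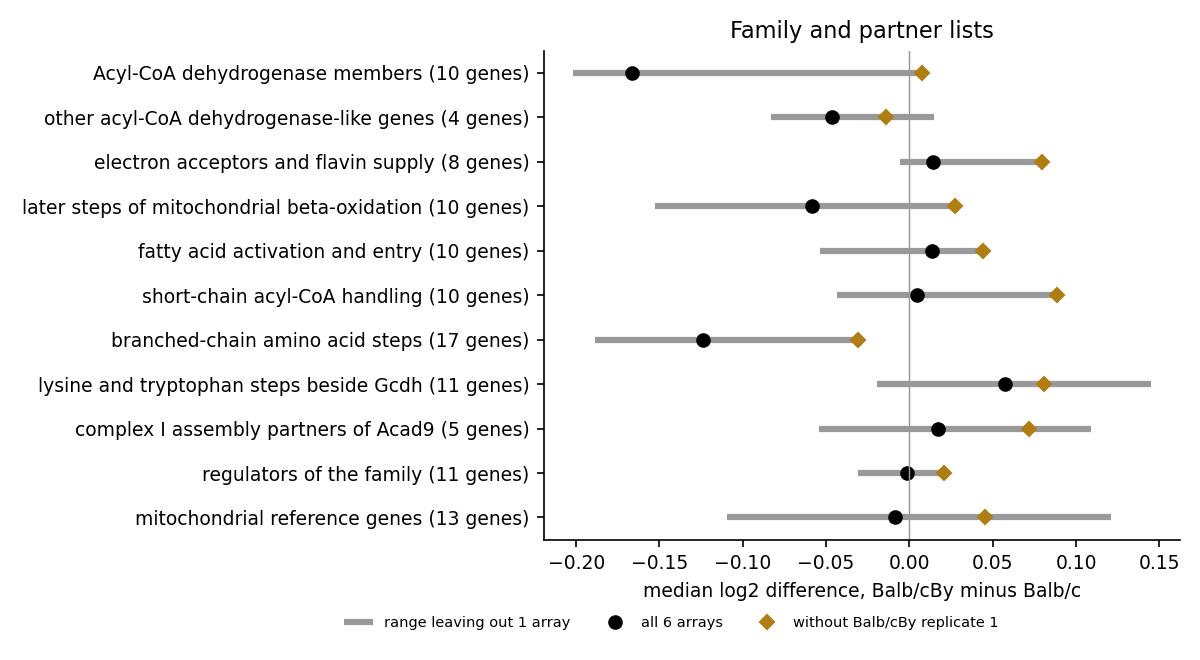
Median log2 difference, Balb/cBy minus Balb/c (horizontal axis), of the family and of 10 partner lists, with all 6 arrays (black circles), the range when 1 array is left out (grey bars) and the value without Balb/cBy replicate 1 (ochre diamonds). The family median is -0.17 with all arrays and 0.01 without Balb/cBy replicate 1, and the branched-chain list goes from -0.12 to -0.03.

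The measured genes next to Acads on chromosome 5 were spread on both sides of 0. In the gene order of build GRCm38.p6, the nearest measured genes were Sppl3, a membrane protease, and Unc119b, a trafficking chaperone for lipid-modified proteins. Sppl3 stood at 9.50, 9.64 and 9.35 in Balb/c and at 9.46, 9.62 and 9.50 in Balb/cBy, a log2 difference of 0.03 (interval -0.22 to 0.27). Unc119b stood at 9.77, 9.66 and 9.03 in Balb/c and at 9.31, 9.46 and 9.61 in Balb/cBy, a difference of -0.03 (interval -0.47 to 0.41). For both, the Balb/cBy arrays lay within the Balb/c range. Of 10 measured neighbours, 5 on each side, 3 were lower and 7 higher, from -0.16 to 0.27, and 0 had an unadjusted p under 0.05. The 1 neighbour without overlap was Oasl1, an oligoadenylate synthetase-like gene of the interferon response, at 8.57, 8.59 and 8.57 in Balb/c and at 8.72, 8.80 and 8.76 in Balb/cBy (log2 difference 0.18, interval -0.01 to 0.38). Of all genes, 7.83% did not overlap.

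**Figure D5:**
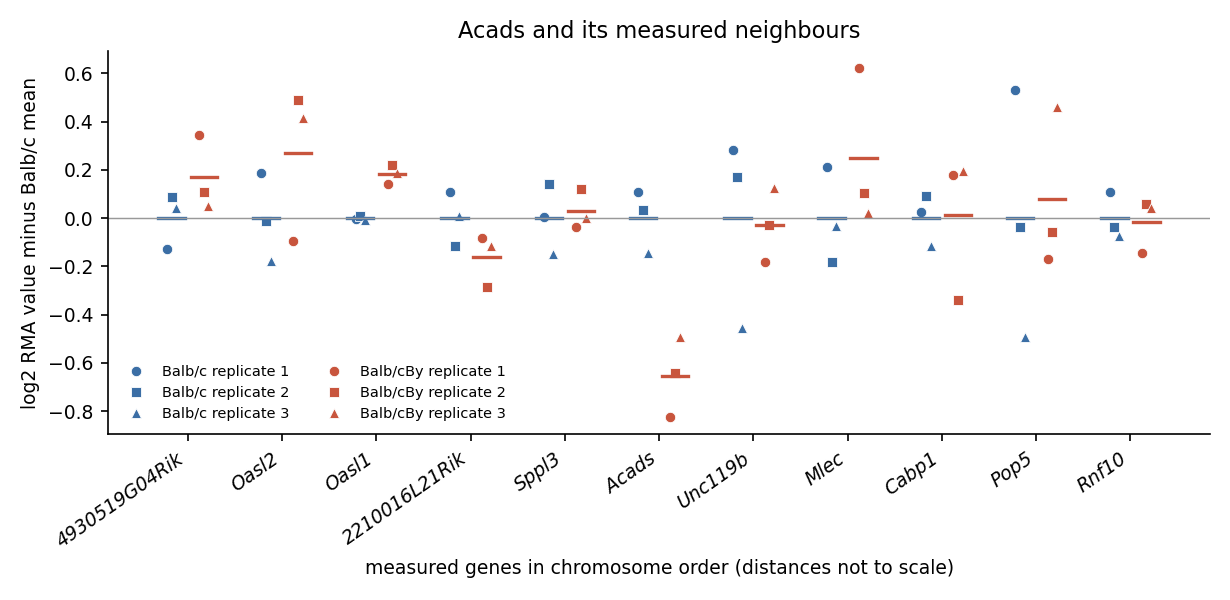
Values of Acads and of its 5 nearest measured genes on each side, in chromosome order (vertical axis, log2 RMA value minus the gene's Balb/c mean), with a marker per array and a line at each group mean. Acads has a Balb/cBy mean of -0.65, and the neighbours lie between -0.16 and 0.27.

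The pattern of Acads was compared with that of 4955 genes whose SD over the 6 arrays was at least 0.2. Symbols made of Gm plus digits or ending in Rik had been left out of these. The genes most like Acads were Olfr1328 (Pearson r = 0.96), Acaa1b (0.95), AW146154 (0.95), H4c17 (0.94) and Rgs19 (0.93). These are the top values of many genes over 6 arrays, with no test. Acaa1b, a peroxisomal thiolase, stood at 11.00, 10.98 and 10.80 in Balb/c and at 9.54, 10.32 and 10.30 in Balb/cBy, with a log2 difference of -0.87. It was picked for its likeness to Acads over these same arrays, so its difference between the groups follows largely from that choice. Olfr1328, an olfactory receptor gene with low values, lay between 4.92 and 5.25 in Balb/c and between 4.47 and 4.77 in Balb/cBy.

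Over all probe sets, array medians lay between 7.66 and 7.74, and correlations between arrays between 0.972 and 0.989. Of the 8 hepatocyte markers, 4 were lower and 4 higher in Balb/cBy. Alb, the albumin gene, lay between 14.16 and 14.22 in all 6 arrays, while Pck1, a gluconeogenic enzyme gene, lay between 12.77 and 12.85 in Balb/c and between 12.24 and 13.16 in Balb/cBy. Of 10 marker lists for liver and other cell types, the mean log2 value of T, B and plasma cell genes was the one without overlap, at 7.62 to 7.66 in Balb/c and 7.87 to 8.27 in Balb/cBy. Of its 5 genes, the immunoglobulin genes Ighm (1.59) and Jchain (1.12) had higher values in Balb/cBy, and Cd3e, Cd8a and Ms4a1 had lower ones, with Ms4a1, a B cell gene, at -0.27 without overlap. The mean of the stellate list ranged from 9.34 to 9.71 in Balb/c and from 9.57 to 9.92 in Balb/cBy, with 5 of 6 genes higher. The groups did not overlap for the matrix genes Dcn (0.48) and Lum (0.53), where 7.83% of all genes did not. The collagen genes Col1a1 (0.0053) and Col3a1 (-0.03) of the same list had overlapping groups. For the Kupffer cell list the mean ranged from 9.18 to 9.86 and from 9.43 to 9.80. The exocrine pancreas list had a mean of 8.46 in Balb/c replicate 3 and of 7.53 to 7.70 in the other arrays. Each of its 3 measured genes was highest in Balb/c replicate 3, with Ctrb1 at 9.69 there. The part of these cell types in the values of Acads and of the other members was not tested.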

How the data were processed

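The authors deposited 1 log2 value per probe set and array, computed with RMA per the submitters' processing notes, a method that corrects background, equalises the arrays' distributions and summarises the probes of a set. The RMA version, chip annotation, filters and build were not given in the sources used here. Depth has no counterpart on arrays, and the number of arrays, 3 per group, limits the precision.

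The table held 41345 probe sets, of which 23521 had 1 gene symbol, 1814 several and 16010 none here. Where a gene had several probe sets, the one with the highest mean was kept, which left 22180 genes, with no filter on low values. Balb/cBy minus Balb/c was fitted by limma 3.58.1 (lmFit, eBayes; R 4.3.3) with no covariate, and adjusted over all genes (Benjamini-Hochberg, threshold 0.05). Intervals are at 95% for a single gene. Levels of different probe sets were not compared. Exact permutation tests were two-sided. The fit was tested on simulated data.

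The named genes were the members, genes of each list with an unadjusted p under 0.05 or else the 2 smallest, the 5 genes most like Acads, and 5 neighbours on each side. Etfb, Etfdh, Acad11, Acad12, Alb, Pck1 and the cell type markers were added to these once their values had been seen. The members and lists were chosen with earlier results of these data known. Same-numbered arrays were checked for pairing: their deviations correlated at -0.32, -0.20 and -0.23, which shows no likeness between them. Arrays of unlike number were not compared, so the check cannot settle whether the numbers pair the mice. P-values measure the spread between these arrays.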

Additional observations from a re-analysis of the deposited data

How the results depend on the processing

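Acads kept its lower value in Balb/cBy and did not pass in any of the 15 alternatives, with differences from -0.73 to -0.57 when an array was left out. Some of the alternatives could not move the Acads difference, only its SE and p. These were the replicate block, the low-value filter, the mean of all probe sets, each probe set alone, and limma's trend and robust options. With the replicate number as a block, the difference was -0.65 (SE 0.15, adjusted p = 0.9997 in limma), and the block changed no call of any member. Leaving out 1 array gave ranges of -0.33 to -0.04 for Acadm, -0.32 to 0.014 for Acadl, -0.26 to -0.04 for Acadvl, -0.30 to 0.037 for Acadsb, -0.15 to 0.11 for Acad8, -0.21 to 0.0012 for Acad9, -0.33 to 0.10 for Acad10, -0.048 to 0.065 for Ivd and -0.14 to 0.031 for Gcdh. Signs also turned with array weights for Acad8 (0.030) and with arrays recentred on their median for Ivd (0.012). The number of members lower was 4 to 10 over the arrays left out. The number of genes past the threshold was 0 in the main fit, and at an unadjusted p under 0.05 it was 833. It was 0 to 3 when an array was left out, 12 with array weights and 66 with arrays recentred on mitochondrial reference genes. That recentring subtracts from every gene of an array the same offset, which ran from -0.21 to 0.12, and the estimated prior degrees of freedom of limma then went from 4.18 to infinity. None of the 10 members was among these calls. The counts for beta-oxidation and branched-chain lists without each array were chosen after seeing the data. The 3 arrays per group limit the precision, as the widths of the 95% intervals show.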
